A study of Rattus norvegicus with 6 samples.

Results

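The genes of DNA mismatch repair were examined in NRK-52E cells, an established line of rat kidney epithelial cells labelled as wild type, after exposure to streptozotocin (STZ), a nitrosourea linked to glucose that alkylates DNA. The members were taken by gene symbol and were Msh6, Msh3, Pms2, Pms1, Mlh3 and Exo1. Of these 6 genes, 5 matched a row by symbol among the 18930 rows of the count table; Msh3 matched none and was not analysed here. As 2871 rows have an Ensembl identifier in place of a symbol and were not paired with symbols, Msh3 may be among them. The STZ group (3 samples) received STZ at 10 mM over 24 h before RNA extraction, and the Control group (3 samples) received vehicle, which the sources do not name for the sequenced cells. Replicates 1 to 3 of Control held 10430924, 10902792 and 12737131 counts in total, and replicates 1 to 3 of STZ held 13921413, 11658253 and 15191349. All samples come from a single cell line, and no other dose or time was sequenced in them. Since no source says that replicates were separate cultures, p-values measure only the spread between these samples, which may be technical.

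Mismatch repair removes bases that replication paired wrongly. A MutS dimer finds the mismatch and recruits a MutL dimer, an exonuclease removes a stretch of the new strand, and the gap is filled and sealed with the help of the PCNA clamp. Methylating nitrosoureas place a methyl group on the O6 position of guanine, which then pairs with thymine; mismatch repair acts on the new strand while the lesion stays in the template, and this cycle is known to make the lesion toxic.

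The label of the cells was checked against marker genes, in CPM, the counts scaled to a common library size with the TMM factors of edgeR. Of 6 kidney epithelium markers in the table, Krt8, a keratin of simple epithelia, was the abundant one, and the list summed to 1106, 1180 and 1169 CPM in Control and to 1599, 1616 and 1606 CPM in STZ. This higher sum comes from Krt8 (log2 fold change 0.48), whereas Cdh1, the epithelial cadherin gene and the only other one that passed the filter on low counts, was lower in STZ (log2 fold change -0.69, adjusted p = 0.0296 in edgeR) with overlapping groups and 16 to 35 reads per sample. The other 4, among them Krt18 and Pax8, had at most 10 counts in every sample. Of 6 proximal tubule markers in the table, 5 had at most 10 counts in every sample, including the transporter genes Slc34a1, Slc5a2 and Slc2a2, so the defining transporters of this segment were at or near 0. Their list, led by the water channel gene Aqp1, summed to 16.5, 15.5 and 9.90 CPM in Control and to 6.83, 6.52 and 5.74 CPM in STZ. The fibroblast list, led by the collagen gene Col3a1, summed to 111, 102 and 99.6 CPM in Control and to 64.4, 66.7 and 56.1 CPM in STZ; 3 of its 6 genes in the table passed the filter on low counts and all 3 were lower in STZ (adjusted p below 0.05 in edgeR, as for 25.1% of all genes tested), with overlapping groups for Col1a1, while Col1a2, Pdgfra and Lum were at or near 0. Endothelial markers summed to at most 4.15 CPM in any sample, and Vwf, which led them, was lower in STZ without overlap of the groups (log2 fold change -1.15, adjusted p = 0.00129 in edgeR). Kdr of the same list lay higher in STZ, also without overlap. It had 0, 2 and 1 reads in Control and 6, 9 and 7 in STZ, and did not pass the filter on low counts. Leukocyte markers, led by Cd68, summed to at most 2.83 CPM, with at most 1 read of Ptprc. The part of these shifts in the values of the mismatch repair genes was not tested.

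Promoters are shown for the members with the highest and the lowest fold change, Msh6 and Mlh3, since these differ most in their response. Each runs from 250 bases before to 50 bases after the annotated start, comes from RefSeq on the rat build GRCr8, which is not the build the reads were mapped to, and is written in the direction of transcription. Capitals mark E2F motifs (TTTCCCGC, TTTGGCGC, TTTCGCGC or TTTGCCGC), CCAAT boxes (CCAAT) and GC boxes (GGGCGG), searched on both strands.
Msh6, chr6:12333456-12333755, minus strand: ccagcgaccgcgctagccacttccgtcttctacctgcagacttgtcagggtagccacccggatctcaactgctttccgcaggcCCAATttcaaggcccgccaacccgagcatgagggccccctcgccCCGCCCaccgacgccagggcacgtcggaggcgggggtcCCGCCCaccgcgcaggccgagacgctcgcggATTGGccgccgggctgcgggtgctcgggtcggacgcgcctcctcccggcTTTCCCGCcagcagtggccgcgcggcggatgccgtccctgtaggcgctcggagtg
Mlh3, chr6:110648614-110648913, minus strand: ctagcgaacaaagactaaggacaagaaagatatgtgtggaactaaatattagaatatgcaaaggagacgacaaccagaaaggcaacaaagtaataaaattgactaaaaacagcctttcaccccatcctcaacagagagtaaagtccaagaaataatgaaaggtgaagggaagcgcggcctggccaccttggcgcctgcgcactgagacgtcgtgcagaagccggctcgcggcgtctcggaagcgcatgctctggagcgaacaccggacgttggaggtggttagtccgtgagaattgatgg

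The Msh6 promoter held 1 E2F motif, which begins 5 bases before the annotated start and runs across it, together with 2 CCAAT boxes and 2 GC boxes. Its GC content was 72.3% and it had 38 CpG dinucleotides, against medians of 51.7% and 7 over all 33469 promoters of this length. None of these motifs was found in the Mlh3 promoter, which had a GC content of 49.3% and 18 CpG dinucleotides. An E2F motif was present in 2.14% of all promoters, a CCAAT box in 37.5% and a GC box in 33.1%. Promoters matched 5 of the 6 members by symbol. Pms2 has 2 entries with shifted starts, each with 3 CCAAT boxes and 1 GC box; Exo1 had 2 CCAAT boxes and 1 GC box, and Msh3 had 3 GC boxes. A half-site of the p53 motif, present in 7.98% of promoters, was found in no entry of these 5 members. A match describes these letters only and is not a binding site.

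The 5 members tested had log2 fold changes between -0.31 and 0.11 in STZ against Control. Msh6, the mismatch-sensing subunit, was higher by 8.30% (95% interval 2.54% to 14.4%), the MutL genes Pms1 and Mlh3 were lower, and Pms2 and Exo1 did not pass the test. With the quasi-likelihood test of edgeR and Benjamini-Hochberg adjustment across the 11870 genes that passed the filter on low counts, 3 of the 5 members had an adjusted p-value below 0.05, 1 higher and 2 lower in STZ. This threshold was passed by 50.9% of all genes tested, with 25.9% higher and 25.1% lower, so the share among the members is near the background. None of the 5 also had an absolute log2 fold change over 1, the second threshold of the study, which together with the first was met by 3.37% of genes tested; this count was 0 by DESeq2 and by limma-voom too. At an unadjusted p below 0.05, 4 of the 5 passed in edgeR, against 55.9% of all genes tested, and none of these had a log2 fold change beyond 1. The count of 3 at the adjusted threshold was 1 without Control replicate 3, 1 without STZ replicate 3 and 1 with DESeq2. The median absolute log2 fold change was 0.16 over the 5 members and 0.19 over all genes tested.

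**Figure D1:**
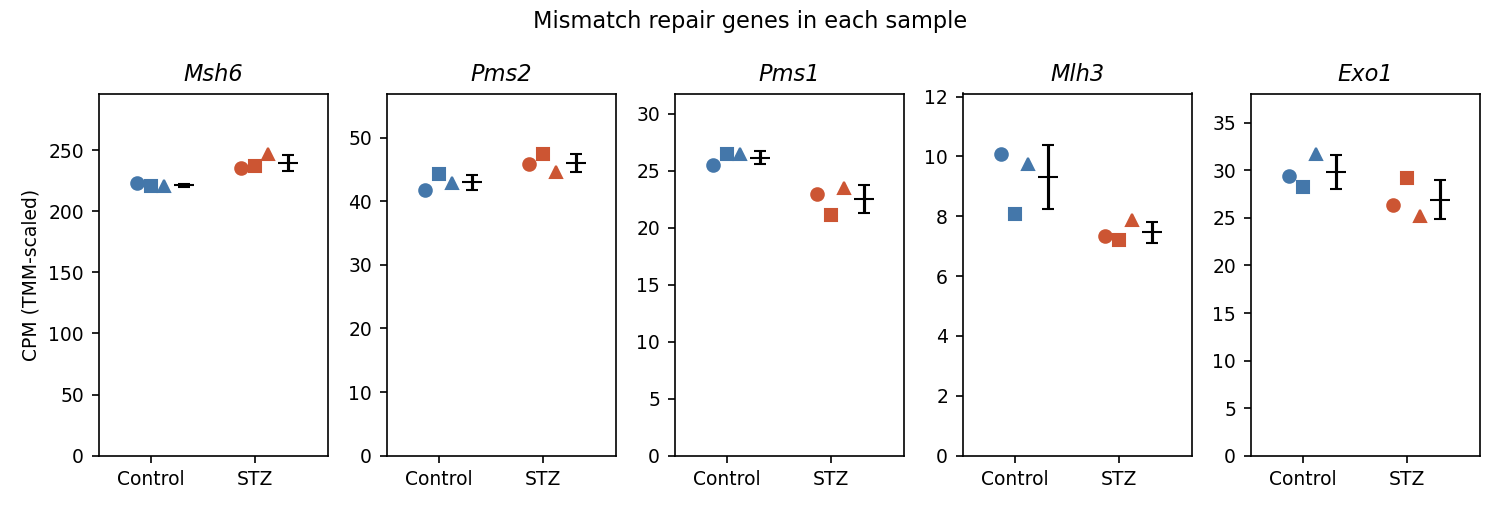
CPM (TMM-scaled, vertical axis from 0) of each mismatch repair gene in the 3 Control samples (blue) and the 3 STZ samples (red); circles, squares and triangles are replicates 1, 2 and 3, and black bars are the mean and SD of each group. STZ samples lie above Control for Msh6 and Pms2 and below it for Pms1 and Mlh3, and the groups overlap for Exo1.

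Msh6 encodes the MutS subunit that contacts single-base mismatches, and Msh3, not analysed here, is its counterpart for larger loops. Msh6 was at 223, 221 and 221 CPM in replicates 1 to 3 of Control and at 235, 237 and 247 CPM in replicates 1 to 3 of STZ. The Control samples were nearly level, and every STZ sample lay above all of them. Means were 221 ± 1.25 CPM in Control (SD, n = 3) and 240 ± 6.40 in STZ (SD, n = 3), giving a log2 fold change of 0.11 (SE 0.04) with an adjusted p of 0.0125 in the quasi-likelihood test of edgeR. Between 2363 and 3700 reads per sample stand behind these values, and 67.4% of all genes tested had a larger absolute change. The call was lost without STZ replicate 3 (log2 fold change 0.09, adjusted p = 0.0771 in edgeR) and with scaling by library size only (0.08, adjusted p = 0.0759), within a range of 0.00936 to 0.0771 over 15 alternatives. In the GRCr8 annotation the span of Msh6 overlaps Fbxo11, an F-box gene, which was lower in STZ with a log2 fold change of -0.25 (SE 0.06). As no source gives the strand setting of the counting, reads of overlapping genes may be mixed.

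Pms2 encodes the endonuclease subunit of the main MutL dimer. Its level was 41.8, 44.2 and 42.9 CPM in replicates 1 to 3 of Control and 45.9, 47.4 and 44.6 CPM in replicates 1 to 3 of STZ. The STZ samples lay above the Control samples, but Control replicate 2 and STZ replicate 3 were almost level. Its log2 fold change of 0.10 (SE 0.06) had an adjusted p of 0.190 in the quasi-likelihood test of edgeR, and the 95% interval of the change ran from -1.84% to 16.3%. Over 15 alternatives the adjusted p lay between 0.154 and 0.407, the highest with library size only (log2 fold change 0.06). Aimp2, which lies within 1 kb of Pms2 in GRCr8, had a log2 fold change of -0.08 and did not pass the test.

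Pms1 encodes another MutL subunit, whose part in repair is less well defined. In replicates 1 to 3 it was measured at 25.5, 26.5 and 26.4 CPM in Control and at 23.0, 21.1 and 23.5 CPM in STZ. Every STZ sample lay below every Control sample. Group means were 26.1 ± 0.575 CPM in Control (SD, n = 3) and 22.5 ± 1.25 in STZ (SD, n = 3). Pms1 fell by 13.5% (95% interval -22.5% to -3.51%), a log2 fold change of -0.21 (SE 0.08) with an adjusted p of 0.0231 in the quasi-likelihood test of edgeR. Its call was lost without Control replicate 2 (adjusted p = 0.0603 in edgeR), Control replicate 3 (0.0580) or STZ replicate 2 (0.103) and with DESeq2's Wald test (0.108), and the lowest adjusted p of the 15 alternatives was 0.00859. Osgepl1 and Ormdl1, whose spans overlap Pms1 in GRCr8, had log2 fold changes of -0.08 and -0.05 and did not pass.

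Mlh3 encodes the MutL subunit best known from crossing over in meiosis. It was at 10.1, 8.09 and 9.75 CPM in replicates 1 to 3 of Control and at 7.34, 7.21 and 7.87 CPM in replicates 1 to 3 of STZ. The groups did not overlap, although Control replicate 2 lay close to STZ replicate 3. Means were 9.31 ± 1.07 CPM in Control (SD, n = 3) and 7.48 ± 0.351 in STZ (SD, n = 3). With a log2 fold change of -0.31 (SE 0.13) and an adjusted p of 0.0448 in the quasi-likelihood test of edgeR, Mlh3 had the largest fold change of the 5 members and the fewest reads, 83 to 125 per sample. Its call was lost in 7 of 15 alternatives. The adjusted p was 0.149 without Control replicate 1, 0.131 without Control replicate 3, 0.104 without STZ replicate 1, 0.104 without STZ replicate 2 and 0.0549 without STZ replicate 3 in edgeR, 0.0539 in limma-voom and 0.168 in DESeq2's Wald test; the lowest of the 15 was 0.0204. All 15 gave a negative value, between -0.40 and -0.26.

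Exo1, the exonuclease of the pathway, stood at 29.4, 28.3 and 31.7 CPM in replicates 1 to 3 of Control and at 26.3, 29.2 and 25.2 CPM in replicates 1 to 3 of STZ. STZ replicate 2 lay among the Control samples, so the groups overlapped. A log2 fold change of -0.16 (SE 0.08) came with an adjusted p of 0.0804 in the quasi-likelihood test of edgeR. Exo1 passed the threshold without STZ replicate 2 (log2 fold change -0.21, adjusted p = 0.0330 in edgeR), with upper-quartile scaling (0.0486) and with library size only (0.0330), and its highest adjusted p was 0.310, without Control replicate 3. Its span overlaps an unnamed long non-coding RNA in GRCr8. Across the members, the groups did not overlap in 4 of 5 genes, against 56.3% of all genes tested.

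**Figure D2:**
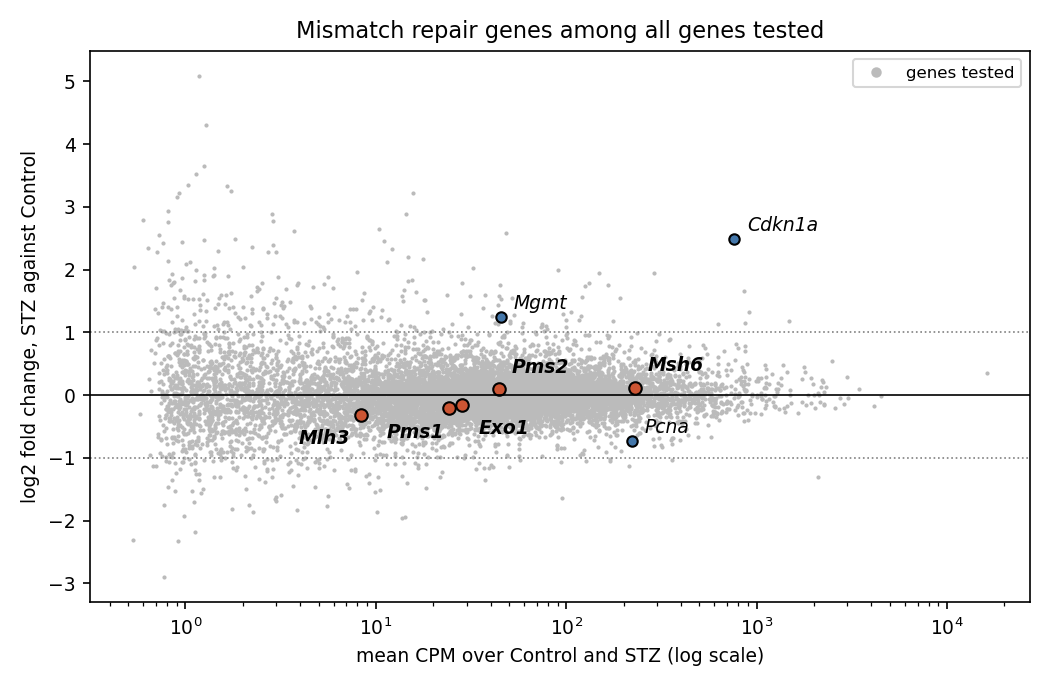
Log2 fold change of STZ against Control (vertical axis) by mean CPM (horizontal axis, log scale) for the 11870 genes tested (grey), with the 5 mismatch repair genes in red and Mgmt, Pcna and Cdkn1a in blue; dotted lines mark log2 fold changes of -1 and 1. The mismatch repair genes lie between -0.31 and 0.11, inside the main cloud of genes.

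The 3 MutL subunits are alternatives in the same kind of dimer, so their counts were also compared within each sample, where library scaling has no effect. In Control the ratio of Pms2 to Pms1 counts was 1.64, 1.67 and 1.62 in replicates 1 to 3, and in STZ it was 2.0, 2.25 and 1.90. All STZ samples lay above all Control samples, with means of 1.64 ± 0.0241 in Control and 2.05 ± 0.179 in STZ (SD, n = 3 each) and a log2 difference of 0.31. This ratio rests on 443 to 669 reads of Pms2 and 243 to 352 of Pms1 per sample. An SD from 3 samples is imprecise, so the narrow Control spread is no measure of the size of the shift. The ratio of Pms2 to Mlh3 counts was 4.14, 5.46 and 4.40 in replicates 1 to 3 of Control and 6.25, 6.58 and 5.67 in replicates 1 to 3 of STZ. Again no samples overlapped, but Control replicate 2 came close to STZ replicate 3; the log2 difference was 0.41. A two-sided exact permutation test gave p = 0.1 for both ratios, raw and adjusted, which is the smallest p possible with 3 samples against 3, so neither could pass 0.05. Counts are not corrected for transcript length, so a ratio can be read only between groups and not as a ratio of molecules.

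**Figure D3:**
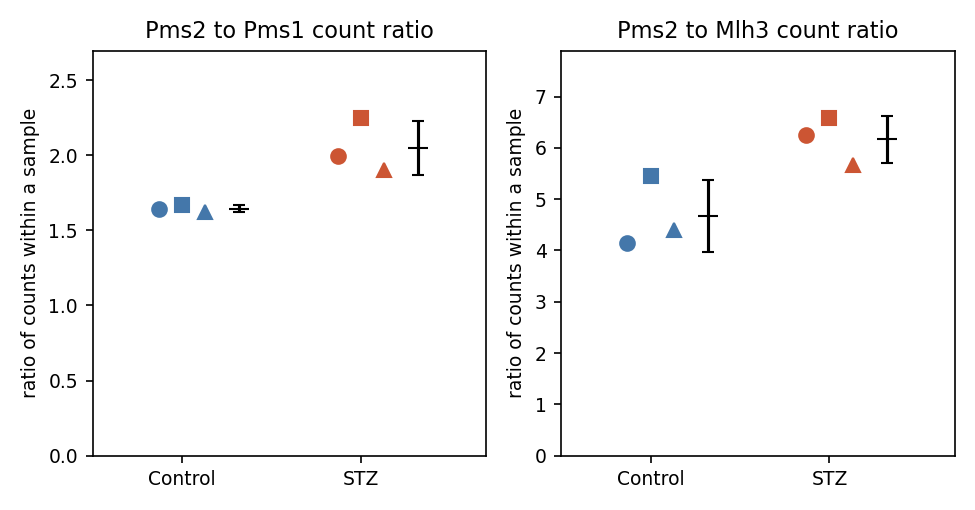
Ratio of Pms2 to Pms1 counts (left) and of Pms2 to Mlh3 counts (right) within each sample, on axes that start at 0; Control is blue, STZ is red, circles, squares and triangles are replicates 1, 2 and 3, and black bars are the mean and SD. The 3 STZ samples lie above the 3 Control samples in both panels.

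Later steps of the pathway use proteins that also serve replication: the PCNA clamp, the RFC complex that loads it, RPA that coats single strands, DNA polymerase delta and DNA ligase 1. A list of 15 such genes, with the accessory factor gene Hmgb1, had 2 genes higher and 7 lower in STZ past the same edgeR threshold, and 6 not past it, beside 25.9% higher and 25.1% lower over all genes tested. Its median log2 fold change was -0.11, against -0.01 over all genes tested. Pcna, which encodes the clamp, was at 267, 289 and 278 CPM in replicates 1 to 3 of Control and at 171, 162 and 168 CPM in replicates 1 to 3 of STZ. The groups lay far apart, with a log2 fold change of -0.73 (SE 0.04) and an adjusted p of 3.7e-19 in the quasi-likelihood test of edgeR. Genes of polymerase delta were lower for 3 of its subunits, with log2 fold changes of -0.45 for Pold1, -0.37 for Pold2 and -0.21 for Pold3, while Pold4 (0.13) did not pass. The RPA subunits differed in direction, with 0.18 for Rpa1 and 0.19 for Rpa2 but -0.34 for Rpa3. Lig1, the ligase gene, had a log2 fold change of -0.14. All 5 clamp loader genes, Rfc1 to Rfc5, did not pass and lay between -0.11 and 0.10. Hmgb1 had a log2 fold change of -0.82 (SE 0.21) from 30 to 75 reads per sample. It has processed copies in rodent genomes, and as their part in these few reads was not tested, the value is uncertain.

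The calls of Pold3 and Lig1 depended on single libraries. For Pold3 the log2 fold change was -0.13 and the adjusted p 0.145 without STZ replicate 1, and the adjusted p was 0.0512 without Control replicate 2 in edgeR, and 0.0537 with DESeq2's Wald test. For Lig1 it was 0.0651 without STZ replicate 1, 0.0571 without Control replicate 3 and 0.0545 without STZ replicate 3 in edgeR. The lowest adjusted p over the alternatives was 0.00253 for Pold3 and 0.00116 for Lig1.

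**Figure D4:**
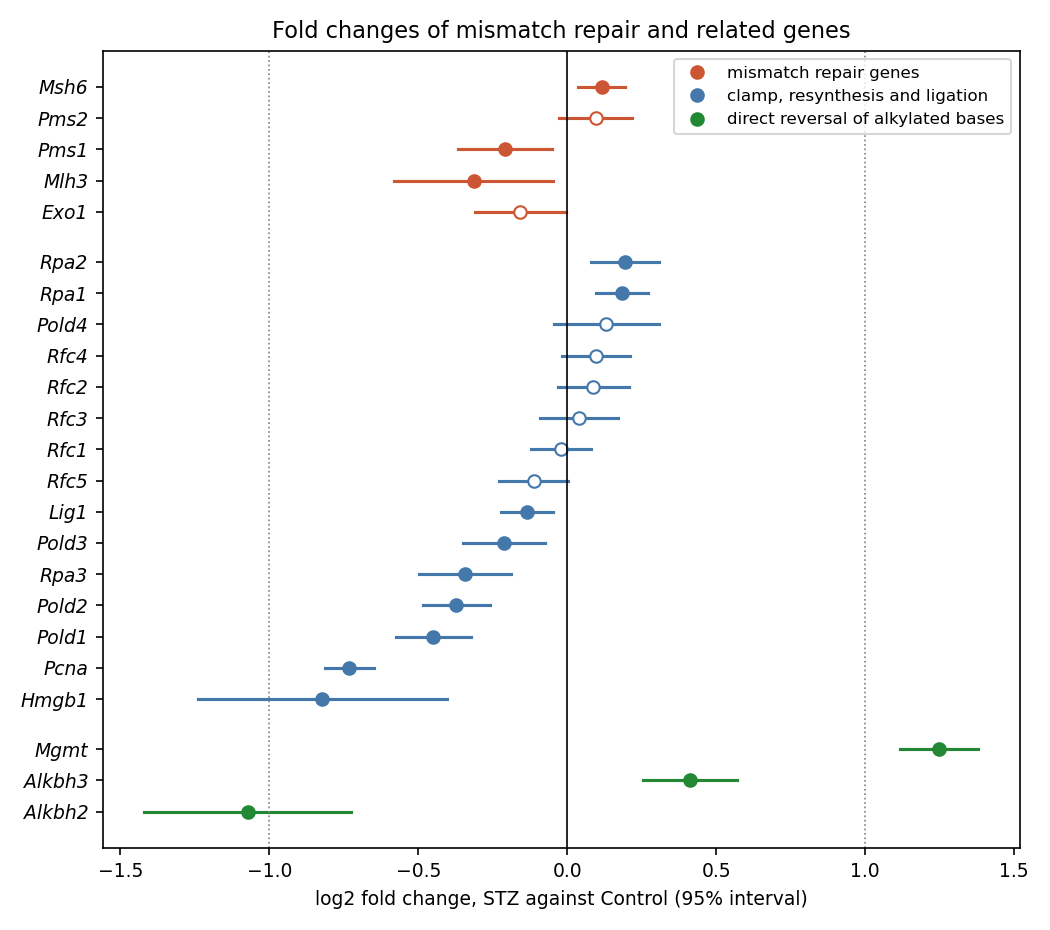
Log2 fold change of STZ against Control (horizontal axis) with its 95% interval for the mismatch repair genes (red), the 15 clamp, resynthesis and ligation genes (blue) and the genes of direct reversal (green); filled points have an adjusted p-value below 0.05, and dotted lines mark -1 and 1. Pcna lies at -0.73, Mgmt at 1.25 and the mismatch repair genes between -0.31 and 0.11.

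Enzymes of direct reversal can remove alkyl groups from bases before mismatch repair meets them. Mgmt encodes the methyltransferase that repairs O6-methylguanine. It was at 27.4, 28.6 and 24.8 CPM in replicates 1 to 3 of Control and at 65.1, 64.8 and 61.8 CPM in replicates 1 to 3 of STZ. The groups were far apart, and Mgmt rose 2.37-fold, a log2 fold change of 1.25 (SE 0.06) with an adjusted p of 3.5e-20 in the quasi-likelihood test of edgeR. Among the dioxygenases that repair other methylated bases, Alkbh2 was lower (log2 fold change -1.07, from 38 to 83 reads per sample) and Alkbh3 was higher (0.41).

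Of 6 relatives and accessory factors of the MutS and MutL proteins, 4 were tested, and 1 was higher and 1 lower in STZ, beside 25.9% and 25.1% of all genes tested. Mcm8, a helicase gene, had a log2 fold change of 0.49. Setd2 encodes the enzyme for a histone mark that the Msh6 protein binds, and had -0.11 with an adjusted p of 0.0313 in edgeR. Its call was lost without Control replicate 2 (adjusted p = 0.0616 in edgeR), Control replicate 3 (0.129), STZ replicate 1 (0.0953) or STZ replicate 2 (0.0990) and with DESeq2's Wald test (0.0658), and the lowest of its 15 alternatives was 0.00452. Msh5 had only 9 to 22 reads per sample and, like Fan1, did not pass. Among nuclease genes related to Exo1, Ercc5 of nucleotide excision repair was lower with a log2 fold change of -0.35, and Fen1 (0.03) and Gen1 (-0.13) did not pass.

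The ATR kinase branch relays signals from mismatch repair. Of its 10 listed genes 9 were tested, with a median log2 fold change of -0.05, and 1 was lower in STZ, where 50.9% of all genes tested passed in either direction. Chek1, the checkpoint kinase gene, had a log2 fold change of -0.22 and an adjusted p of 0.0238 in edgeR, with overlapping groups. Its call was lost without Control replicate 1 (adjusted p = 0.117 in edgeR), STZ replicate 1 (0.0986) or STZ replicate 2 (0.168) and with DESeq2's Wald test (0.1001), and the lowest of its 15 alternatives was 0.00309, without STZ replicate 3 (log2 fold change -0.33).

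Cell cycle genes are given beside the members because the clamp and resynthesis genes also serve replication. Of 22 S phase genes, 1 was higher and 11 were lower in STZ past the edgeR threshold, with a median log2 fold change of -0.12. Over all genes tested, 25.9% were higher and 25.1% lower, 50.9% together, and the median was -0.01. Tyms, which encodes thymidylate synthase, had the highest value (0.52). Of 15 genes of G2 and mitosis, 3 were higher and 11 lower, with a median of -0.26, beside the same shares and median over all genes. Mki67 had the lowest value (-0.67), and Aurka, a mitotic kinase gene, had the highest (0.14). The call of Aurka was lost without Control replicate 1 (adjusted p = 0.0873 in edgeR), Control replicate 2 (0.0556) or STZ replicate 2 (0.0759), with library size only (0.0704) and with DESeq2's Wald test (0.0616); its lowest of 15 was 0.00751. All 5 genes of a short p53 response list were higher, with Cdkn1a, which encodes p21, at a log2 fold change of 2.49. In bulk samples, fewer cycling cells and less RNA of these genes per cell cannot be told apart, and the part of the cell cycle in the values of the mismatch repair genes was not tested.

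**Figure D5:**
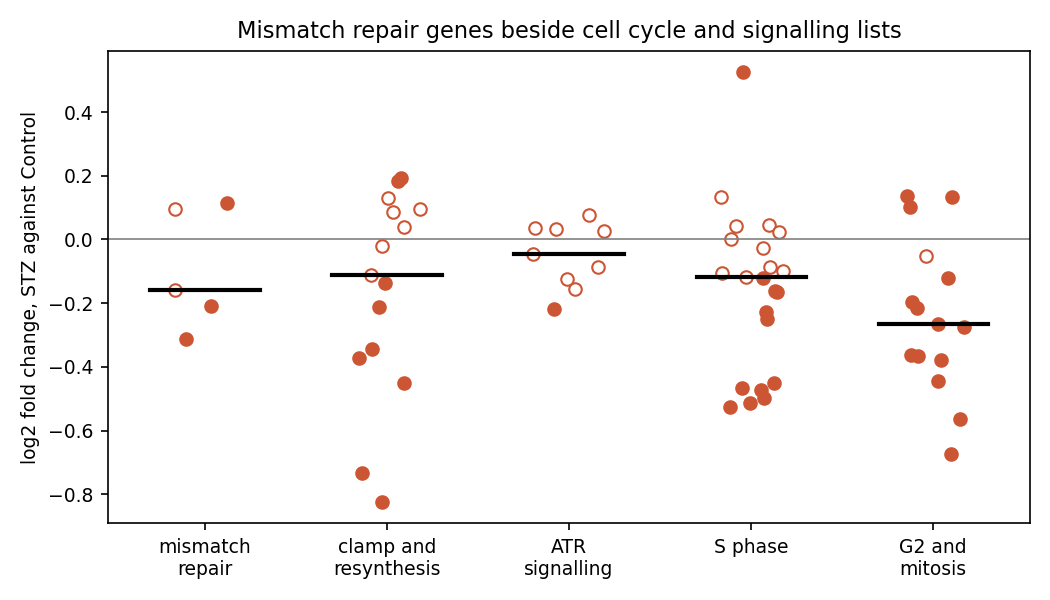
Log2 fold change of STZ against Control (vertical axis) for each tested gene of 5 lists (mismatch repair, clamp and resynthesis, ATR signalling, S phase, G2 and mitosis); filled points have an adjusted p-value below 0.05, black lines are medians, and the horizontal spread of points has no meaning. The medians are -0.16 for mismatch repair, -0.11 for clamp and resynthesis, -0.05 for ATR signalling, -0.12 for S phase and -0.26 for G2 and mitosis.

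For each member, the genes with the most similar profile were those with the smallest root-mean-square difference in log2 CPM over the 6 samples, centred on the Control mean, among 9691 other genes that have a symbol and average 50 or more normalized counts. In these units Nucb2 (0.012) and Slc1a5 (0.013) were nearest to Msh6, and Slc25a11 (0.014) and Ube2j1 (0.015) to Pms2. Ogfod1 (0.022) and Usp48 (0.022) were nearest to Pms1, Rabl2 (0.024) and Xrcc4 (0.032) to Mlh3, and Sirt6 (0.023) and Grwd1 (0.029) to Exo1. These distances describe likeness of profile only.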

How the data were processed

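Libraries were made with a TruSeq stranded mRNA kit. The authors mapped single-end reads to Rnor6 with STAR 2.7.10a and deposited raw counts of uniquely mapped reads from featureCounts; the strand setting is not given in the sources used here. Here, TMM scaling, filterByExpr at its defaults and the quasi-likelihood test were run in edgeR 4.0.16 (R 4.3.3). Adjusted p-values of genes are Benjamini-Hochberg adjusted over all genes in that fit, 11870 as reported. Standard errors (SE) are the absolute log2 fold change over the square root of F, with 95% intervals from the t distribution. The common biological coefficient of variation was 3.25%.

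The members and lists were chosen with earlier results of these data known. Named genes were the members, the largest rise and fall past the test in each list, all clamp and resynthesis genes past the test, Mgmt, and the 2 genes most alike to each member (prior count of 2; placeholder symbols left out). Marker, neighbouring and other genes named beyond this rule were chosen after their values were seen. Of 3 ratios planned, Msh6 to Msh3 could not be computed, so adjustment covered the other 2. Alternatives were 2 filters, 3 scalings, 3 tests (edgeR's likelihood ratio test, DESeq2 1.42.0 with its own size factors and filter, and voom of limma 3.58.1), a replicate block and each sample left out. Promoters and neighbouring genes came from RefSeq on GRCr8, matched by symbol. Other genes of the pathway were not analysed here, and 1 gene that the naming rule gives is not reported here, though it enters the counts.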

Additional observations from a re-analysis of the deposited data

How the results depend on the processing

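The number of mismatch repair genes past the test, 3, was 1 with DESeq2, whose test, size factors and filter all differ (12691 genes tested against 11870), 1 to 2 with a sample left out and 2 to 4 under the remaining alternatives; none passed both thresholds in any of these. Among all genes, 400 were differentially expressed, and 249 when each sample had to have 10 counts or more, which tests fewer genes; leaving out the filter gave 585, and leaving out a sample gave 403 to 462. Of the clamp and resynthesis genes, 9 passed, and 7 to 10 did over all alternatives. Over 35 named genes and 525 refits, none changed direction, 468 stayed on the same side of 0.05, 42 lost the call and 15 gained it; the cause was not tested. Scaling moved the median log2 fold change of all genes from -0.01 to -0.04 at most, with library size only. Genes past the test, 3070 higher and 2976 lower, were then 2664 and 3485, and with upper-quartile scaling 2830 and 3252. Control and STZ share replicate numbers, and the sources do not say whether samples of the same number were paired. Deviations from the group means correlated at 0.034, -0.034 and 0.105 between samples of the same number (10341 genes, which are not independent). Not every sample correlated best with its own number. With so few samples, whose deviations within a group depend on each other, this check cannot decide whether they were paired. A model with the replicate block gave 398 differentially expressed genes, 3 mismatch repair genes and 9 clamp and resynthesis genes past the test, and it changed no call of a mismatch repair gene. For the ratios, pairing samples by number cannot change the mean log2 difference. It was therefore 0.31 (Pms2 to Pms1) and 0.41 (Pms2 to Mlh3) by construction, which says nothing on robustness. With a sample left out the log2 differences were 0.24 to 0.37 and 0.33 to 0.53. The ratio of Msh6 to Msh3 gave no value under any alternative. Mlh3 had the fewest reads among the members, 83 in its lowest sample, and the part of depth in its lost calls was not tested.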
